A study of Mus musculus with 2 samples.

Results

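Netrin-1 (Ntn1) is a secreted guidance protein related to laminins, and Dcc and the Unc5 proteins are its receptors on the cell surface. The genes followed were 1 ligand (Ntn1), the receptor Dcc and the 4 receptors Unc5a, Unc5b, Unc5c and Unc5d. The 6 members were matched by symbol among 32285 genes, and each symbol had a single row. Dcc alone is known to mediate growth towards netrin-1, while an Unc5 receptor, alone or together with Dcc, mediates repulsion. In the forebrain this system is known for guiding commissural and corticofugal axons and for steering migrating neurons and glial precursors. Unc5 proteins also bind ligands of the Flrt family, so a receptor can serve without netrin-1.

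The cells came from wild-type mouse brain at postnatal day 3 (P3). The pallium, the dorsal forebrain that holds the cortex, was dissected from animals dated with the thymidine analogue EdU at embryonic day 12 (E12). Tissue was pooled, and live cells (negative for propidium iodide) among the 10% brightest for EdU were sorted and captured with 10x Genomics 3′ v3.1 chemistry. Both libraries, replicate 1 and replicate 2, belong to this 1 group, with no treatment or control, so the comparisons are between cell groups of the same libraries. The sort decides which cells could be seen. The labels do not tell whether replicate 1 and replicate 2 are different animals, and p-values therefore reflect sample-to-sample scatter that may be technical.

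After removal of barcodes with under 500 genes or over 10% mitochondrial counts, 11228 cells of replicate 1 and 10965 cells of replicate 2 remained, with medians of 7542.5 and 8523 unique molecular identifiers (UMIs, the counted transcripts) per cell. Replicate 1 had 97091962 UMIs in all and replicate 2 had 108903409. Cells were put into groups by at least 2 UMIs of marker genes outside the 6 members. Pdgfra marked oligodendrocyte precursor cells (OPCs; 3658 and 3729 cells), Aqp4 astroglia (1488 and 1473), Gad1 and Gad2 GABAergic cells (970 and 1007), Neurod2 and Neurod6 glutamatergic neurons (922 and 870) and Eomes intermediate progenitors (104 and 151). Further gates gave Cajal-Retzius cells by Trp73 (62 and 68) and microglia by C1qa and C1qb (134 and 146). Of 6 check markers per group that were not gate genes, 6 were highest in their own gate for astroglia, GABAergic cells, Cajal-Retzius cells and microglia, 5 for OPCs, 4 for Eomes progenitors and 2 for glutamatergic neurons, in both libraries. Check markers of the Eomes progenitors summed to 3275 and 3271 CPM (a gene's UMIs per 1000000 UMIs of the group) in glutamatergic neurons, against 3626 and 3765 CPM in Eomes progenitors. Igfbpl1 alone made up 3130 and 3128 CPM of this in glutamatergic neurons and 3152 and 3316 CPM in Eomes progenitors, so the sum separates these neighbouring groups little. Glutamatergic check markers summed to 625 and 701 CPM in glutamatergic neurons, 731 and 781 CPM in Eomes progenitors and 980 and 1147 CPM in Cajal-Retzius cells. That sum was 14.3 to 30.6 CPM in the libraries of OPCs, astroglia and GABAergic cells. It thus did not set glutamatergic neurons apart from Eomes progenitors or Cajal-Retzius cells. Cells past several gates were left out of the groups and made up 7.21% and 9.01% of the cells. The libraries shared 40 barcode sequences among the kept cells.

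Of the promoters of the 6 members, those of Unc5a, Unc5b and Unc5c were in the RefSeq table of the GRCm38.p6 build. The 250 bases before the RefSeq start of Unc5a (chr13:54949161-54949410, plus strand) and of Unc5b (chr10:60831582-60831831, minus strand) are shown, because both of these receptors were higher in Cajal-Retzius cells than in glutamatergic neurons while they ran in opposite directions between OPCs and astroglia, as described below. The window of Unc5c is not shown, since its RefSeq start lies inside the gene as GENCODE places it. Capitals mark the GC box GGGCGG on either strand, overlapping matches included.
Unc5a: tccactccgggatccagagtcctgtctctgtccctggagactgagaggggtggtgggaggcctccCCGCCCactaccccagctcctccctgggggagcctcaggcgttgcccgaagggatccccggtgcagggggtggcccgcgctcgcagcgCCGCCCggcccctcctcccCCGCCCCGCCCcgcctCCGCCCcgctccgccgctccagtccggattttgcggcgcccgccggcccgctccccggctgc
Unc5b: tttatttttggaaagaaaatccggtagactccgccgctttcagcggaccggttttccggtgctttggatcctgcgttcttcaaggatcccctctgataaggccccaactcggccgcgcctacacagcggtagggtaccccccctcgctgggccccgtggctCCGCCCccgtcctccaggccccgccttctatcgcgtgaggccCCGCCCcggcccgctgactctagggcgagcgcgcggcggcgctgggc
The Unc5a window held 5 GC boxes, and 1.93% of 32851 mouse promoter windows of that length held at least as many. The Unc5b window held 2, and 16.7% of all windows held at least as many, while 32.7% held at least 1. Both windows were rich in G and C, at 76.8% for Unc5a and 66.8% for Unc5b, against a median of 52.4%. The E-box CANNTG, the core letters bound by proneural and Olig factors, occurred in neither window and in 66.2% of all windows. These counts describe letters in the windows and not sites in use.

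Ntn1, the ligand (chromosome 11, 68209364 to 68400823, minus strand, mm10), was highest in OPCs in both libraries. Its level was 14.7 and 16.5 CPM in OPCs of replicate 1 and replicate 2, 4.15 and 4.77 CPM in astroglia, 1.30 and 1.51 CPM in GABAergic cells, 1.07 and 1.49 CPM in glutamatergic neurons, and 2.14 and 2.88 CPM in Eomes progenitors. The OPC libraries stood above all others, astroglia came next, and the ranges of GABAergic and glutamatergic cells overlapped. Cajal-Retzius cells had 0 Ntn1 UMIs in both libraries, where 3 counts would have been 2.93 and 2.32 CPM. A Ntn1 UMI was found in 11.6% and 13.9% of OPCs as sequenced. After each cell was thinned to 2000 UMIs, which makes groups of unequal depth comparable, it was found in 3.24% (95% interval 2.68% to 3.89%) and 3.38% (2.80% to 4.03%) of OPCs. Shallower cells were left out, 237 and 204 of the OPCs, 78 and 72 astroglia, 97 and 54 GABAergic cells, 104 and 46 glutamatergic neurons and 2 and 0 Eomes progenitors. The microglial share, taken as the background from free RNA, was 0.820% (1 of 122 cells) in replicate 1 and 0 of 144 cells in replicate 2, which allows up to 2.08%. Microglia were deeper as sequenced, with median UMIs of 11552 and 13915, against 8384.5 and 9224 in OPCs. The summed counts of microglia gave Ntn1 at 0.630 and 0.456 CPM. With 1 and 0 cells behind it, the thinned microglial share sets a wide limit and cannot tell low levels from background. Thinned shares of astroglia (1.21% and 0.642%), GABAergic cells (0.344% and 0.315%) and glutamatergic neurons (0.244% and 0.364%) were within what these backgrounds allow, and Eomes progenitors had 0.

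Dcc (chromosome 18, 71253634 to 72351069, minus strand) was detected in every one of the 5 groups and was highest in the excitatory lineage. It stood at 56.5 and 67.6 CPM in OPCs, 11.2 and 9.47 CPM in astroglia, 52.9 and 52.8 CPM in GABAergic cells, 116 and 137 CPM in glutamatergic neurons, and 155 and 161 CPM in Eomes progenitors. Neighbours in this order did not overlap between libraries, and astroglia were the lowest of the 5 groups. Thinned to 2000 UMIs, 11.3% and 12.8% of OPCs, 2.27% and 2.14% of astroglia, 7.10% and 7.45% of GABAergic cells, 19.7% and 23.7% of glutamatergic neurons and 24.5% and 27.8% of Eomes progenitors had a Dcc UMI. As sequenced, the share was 34.9% and 43.2% in OPCs, 41.3% and 49.7% in glutamatergic neurons and 60.6% and 62.3% in Eomes progenitors. The thinned background in microglia was 0.820% and 1.39%.

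Unc5d (chromosome 8, 28646717 to 29219636, minus strand) marked the excitatory lineage among the 5 groups. It is known in mouse as a gene of multipolar cells in the subventricular zone and of upper-layer neurons. Its level was 222 and 256 CPM in glutamatergic neurons and 211 and 301 CPM in Eomes progenitors, with overlapping ranges. In the other groups it was 9.79 and 9.64 CPM in OPCs, 12.6 and 19.1 CPM in astroglia, and 8.79 and 7.95 CPM in GABAergic cells. A UMI after thinning was found in 33.0% and 33.6% of glutamatergic neurons and in 32.4% and 39.7% of Eomes progenitors, against 1.42% to 3.00% in the libraries of the other 3 groups. Microglia had Unc5d at 3.78 and 2.74 CPM. Their thinned background was 1 of 122 and 0 of 144 cells, which allows up to 4.48% and 2.08%. Thinned shares of OPCs and GABAergic cells were within this. As sequenced, it was found in 58.1% and 65.9% of glutamatergic neurons and 72.1% and 77.5% of Eomes progenitors.

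Unc5a (chromosome 13, 54949411 to 55006018, plus strand) had the same leading groups as Unc5d among the 5, at lower counts. Glutamatergic neurons had 20 and 17.6 CPM and Eomes progenitors 21.4 and 25.9 CPM. OPCs had 6.31 and 5.79 CPM, while astroglia (0.755 and 0.681 CPM) and GABAergic cells (1.58 and 0.379 CPM) had 20 and 14 UMIs over both libraries. Thinned shares were 1.20% and 1.59% of OPCs, 4.16% and 4.00% of glutamatergic neurons and 4.90% and 4.64% of Eomes progenitors, and 0 of 122 and 0 of 144 microglia. Exons of Unc5a overlap those of Hk3 on the other strand, and the sources used here do not say how the authors' counting treated strand, so its counts are uncertain. Hk3 itself had 15 and 12 UMIs in OPCs and at most 1 UMI in any library of the other 4 groups.

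Unc5c (chromosome 3, 141465216 to 141834924, plus strand) was highest in OPCs. It stood at 42.0 and 49.8 CPM in OPCs, 10.7 and 13.1 CPM in astroglia, 10.5 and 17.0 CPM in GABAergic cells, and 10.9 and 11.3 CPM in glutamatergic neurons. The last 3 overlapped with each other. Eomes progenitors had 0 and 7 UMIs, or 0 and 5.04 CPM. As sequenced, a UMI was found in 27.8% and 33.5% of OPCs. Thinned shares were 8.07% and 9.53% of OPCs, and 2.06% to 3.46% in the libraries of astroglia, GABAergic and glutamatergic cells. The overlapping gene Gm15688 on the other strand reached 1.54 and 1.51 CPM in OPCs and less in the other groups, so Unc5c counts are uncertain to that degree.

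Unc5b (chromosome 10, 60762593 to 60831581, minus strand) was scarce in the 5 groups, at 0 to 3.17 CPM per library. Astroglia had 3.17 and 2.86 CPM, GABAergic cells 2.74 and 1.77 CPM, OPCs 1.19 and 0.879 CPM, glutamatergic neurons 0.715 and 0.663 CPM and Eomes progenitors 0 and 1.44 CPM. The thinned shares were 0.714% or less in each library and group, no higher than the microglial background allows (0 of 122 and 0 of 144 cells, up to 2.46% and 2.08%). That limit is wide, as it rests on few microglia, which had Unc5b at 0 CPM in both libraries as sequenced. The 5 groups together held 103 of 297 Unc5b UMIs in replicate 1 and 94 of 376 in replicate 2. Cajal-Retzius cells, an early-born population of the outermost cortical layer that secretes reelin, held 70 and 121 of them in 62 and 68 cells. Cells past no gate held 79 and 71 of the Unc5b UMIs, at 4.49 and 4.63 CPM, and cells past several gates held 43 and 83. Unc5b is also known as a receptor of vascular endothelium, and the few cells of the Cldn5 gate (16 and 24) had 2 and 7 UMIs.

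**Figure D1:**
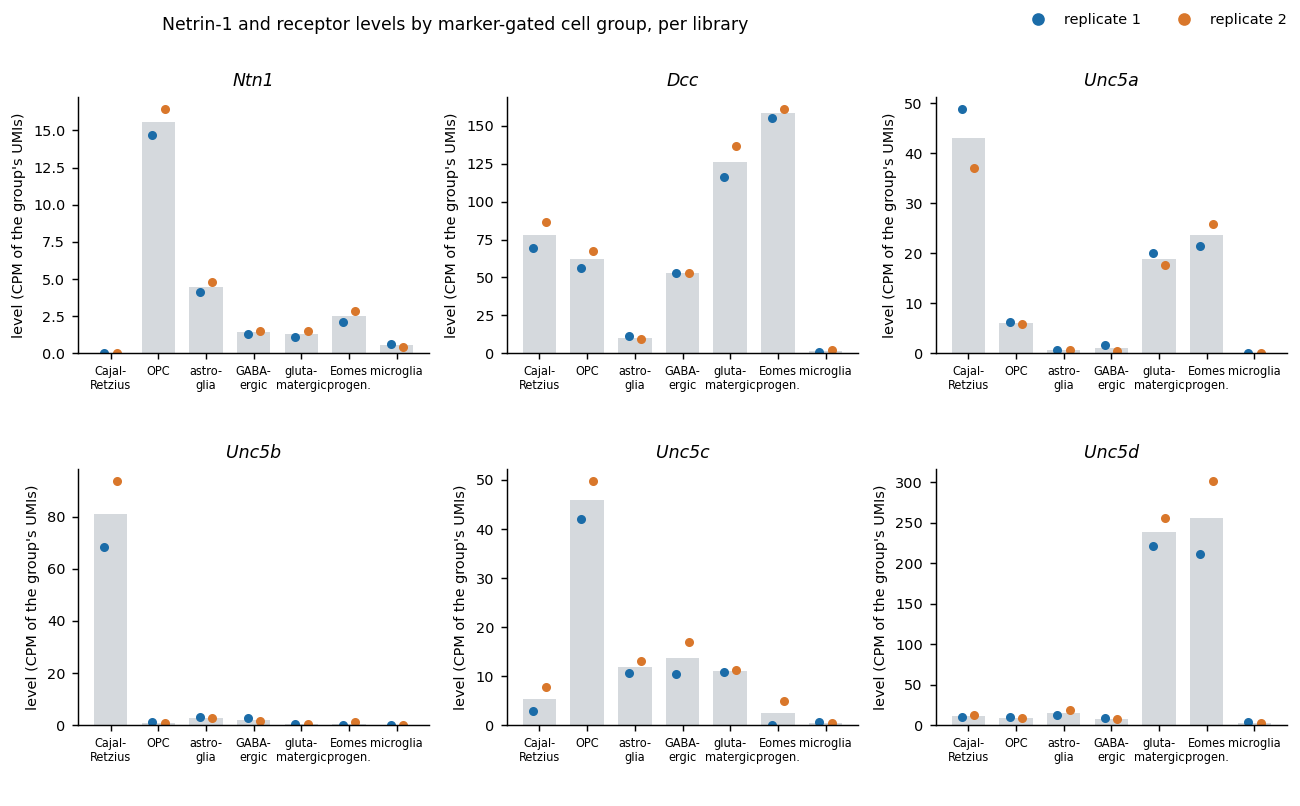
Levels of the 6 genes by cell group (y axis, CPM). Points are the 2 libraries and bars their mean. Unc5b was high in Cajal-Retzius cells, Ntn1 and Unc5c in OPCs, and Unc5d and Dcc in glutamatergic neurons and Eomes progenitors.

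**Figure D2:**
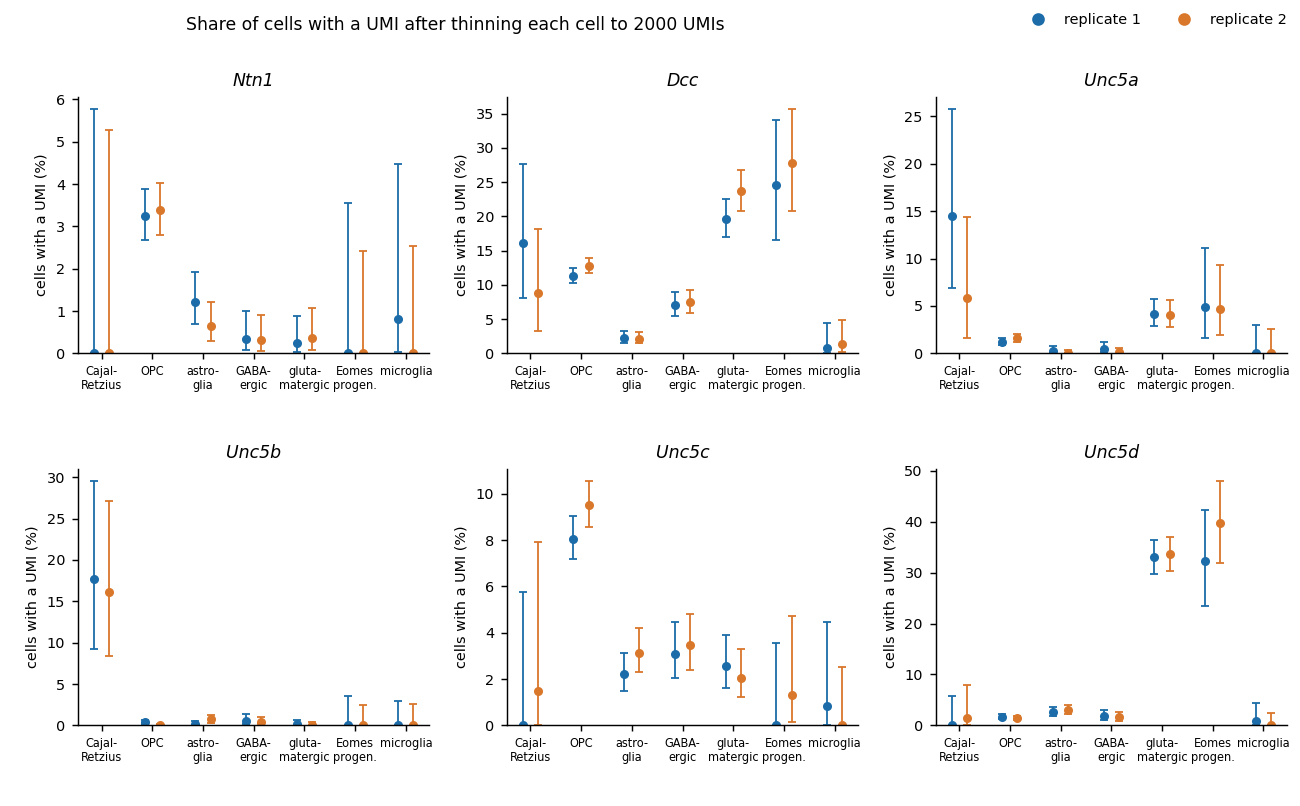
Share of cells with a UMI of each gene (y axis, percent) after every cell was thinned to 2000 UMIs, by group and library. Bars are exact Clopper-Pearson 95% intervals, which cover counting error only. Microglia, on the right of each panel, give the background from free RNA, at 1.39% or less.

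The glial groups differed from each other in every member. Summed counts per library and group were tested with edgeR's quasi-likelihood test over 14125 genes. In OPCs against astroglia, all 6 were past the threshold (adjusted p under 0.05), 4 higher and 2 lower, where 72.0% of all genes tested were past it, 36.6% higher and 35.4% lower. Dcc was 62.1 ± 7.88 CPM in OPCs and 10.3 ± 1.21 CPM in astroglia (SD, n = 2 libraries here and below), a log2 fold change of 2.42 ± 0.09 (SE, edgeR adjusted p = 5.19e-27). Unc5a, Unc5c and Ntn1 were higher in OPCs as well, by log2 2.88 ± 0.26, 1.77 ± 0.08 and 1.63 ± 0.13. Unc5b and Unc5d ran the other way and were lower in OPCs, with log2 fold changes of -1.72 ± 0.27 (edgeR adjusted p = 3.64e-07) and -0.90 ± 0.11 (edgeR adjusted p = 2.41e-09). The libraries of the groups did not overlap for any member. How many of all genes share this was not counted, so it is not read as a trait of the members.

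Between OPCs and glutamatergic neurons, members of the Unc5 family ran in opposite directions. Unc5c was higher in OPCs than in glutamatergic neurons by log2 1.94 ± 0.12 (edgeR adjusted p = 2.69e-18), whereas Unc5d was lower, with a log2 fold change of -4.73 ± 0.07 (edgeR adjusted p = 1.02e-40) and so was Unc5a, with -1.74 ± 0.15. Ntn1 was 15.6 ± 1.22 CPM in OPCs and 1.28 ± 0.297 CPM in glutamatergic neurons, a log2 fold change of 3.48 ± 0.24 (edgeR adjusted p = 1.02e-16). Dcc was lower in OPCs (-1.13 ± 0.06), and Unc5b did not pass the test (0.47, 95% interval -0.61 to 1.55). In all, 5 of 6 members were past the threshold, 2 higher and 3 lower, against 69.0% of all genes tested (34.4% higher and 34.6% lower).

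In astroglia against glutamatergic neurons, 5 of 6 members were past the threshold, 2 higher and 3 lower, against 74.6% of all genes tested (37.8% higher and 36.8% lower). Dcc, Unc5a and Unc5d were all lower in astroglia, with log2 fold changes of -3.56 ± 0.09, -4.62 ± 0.25 and -3.83 ± 0.08. Ntn1 was higher in astroglia by log2 1.85 ± 0.32 and Unc5b by 2.19 ± 0.47 (edgeR adjusted p = 7.53e-05). The Ntn1 value rests on 1.07 and 1.49 CPM in glutamatergic neurons, with 6 UMIs in replicate 1. Thinned Ntn1 shares of both groups were within what the microglial background allows, a wide limit that rests on few cells. Microglia had Ntn1 at 0.630 and 0.456 CPM as sequenced. The Unc5b value rests on 84 UMIs in astroglia and 8 in glutamatergic neurons, and was 0.64 with edgeR adjusted p = 0.0504 when barcodes past several gates went to the gate with the most UMIs. Unc5c did not pass the test (0.18, 95% interval -0.15 to 0.50), but did with the highest gate sum (0.36, edgeR adjusted p = 0.00913) and with a limit of 5% mitochondrial UMIs (0.63, 0.00426).

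Unc5d, Unc5a and Dcc were lower in GABAergic cells as a group than in glutamatergic neurons. Most of the GABAergic cells were Sp8 Meis2 cells, described below, which carry markers of olfactory bulb neuroblasts. The few Lhx6 cells of the group had more Unc5d than the group as a whole. In GABAergic cells against glutamatergic neurons, 4 of 6 members were past the threshold, 1 higher and 3 lower, where 51.5% of all genes tested were past it (23.7% higher and 27.8% lower). Unc5d was 8.37 ± 0.592 CPM in GABAergic cells and 239 ± 24.3 CPM in glutamatergic neurons, 27.1-fold lower in GABAergic cells (log2 -4.76 ± 0.10, edgeR adjusted p = 4.36e-34). Unc5a was lower too, with a log2 fold change of -4.21 ± 0.29, which was -5.45 without replicate 1 and -3.53 without replicate 2. Dcc was lower with -1.18 ± 0.08 (edgeR adjusted p = 3.30e-17). Unc5b was higher in GABAergic cells (1.77 ± 0.55, edgeR adjusted p = 0.00629) from 33 UMIs against 8, and that call was lost with a gate minimum of 1 or 3 UMIs and with assignment by the highest gate sum (edgeR adjusted p of 0.0541, 0.129 and 0.851). Neither Unc5c (0.41, 95% interval 0.06 to 0.77, edgeR adjusted p = 0.0516) nor Ntn1 (0.21, -0.70 to 1.12) passed the test. Unc5c did pass it in 5 alternative settings, with log2 fold changes of 0.43 (no filter on low counts), 0.57 (gate minimum of 1 UMI), 0.48 (Scrublet doublets removed), 0.44 (at least 1000 genes) and 0.94 (at most 5% mitochondrial UMIs), and edgeR adjusted p of 0.0439, 0.0106, 0.0161, 0.0400 and 0.00017 in that order.

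Glutamatergic neurons and Eomes progenitors, the cells that come before them, differed in Unc5c by the test, and which members passed it depended on the setting. Unc5c had 129 UMIs in glutamatergic neurons and 7 in Eomes progenitors, at 11.1 ± 0.267 and 2.52 ± 3.56 CPM. The log2 fold change was 1.99 ± 0.50 (edgeR adjusted p = 0.00299), where 19.2% of all genes tested were past the threshold, 12% higher and 7.21% lower in neurons. The call was lost with assignment by the highest gate sum (edgeR adjusted p = 0.0650) and with a limit of 5% mitochondrial UMIs (0.10). Replicate 1 had no Unc5c UMI in Eomes progenitors, so replicate 2 alone gives a finite fold, of 1.27. Dcc (-0.22, 95% interval -0.42 to -0.02), Unc5a (-0.28, -0.74 to 0.19), Unc5d (-0.03, -0.19 to 0.13) and Ntn1 (-0.89, -2.26 to 0.48) did not pass the test. With a gate minimum of 1 UMI, Dcc (-0.35, edgeR adjusted p = 0.0136), Unc5a (-0.77, 0.0182) and Unc5d (-0.34, 0.00457) passed it as lower in neurons. Dcc also passed with a limit of 5% mitochondrial UMIs (-0.31, edgeR adjusted p = 0.0184), and with the highest gate sum Unc5d passed in the other direction (0.76, 2.60e-06). Of all genes past the threshold, 62.4% were higher in neurons, or 46.7% when DESeq2 was used in place of edgeR.

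**Figure D3:**
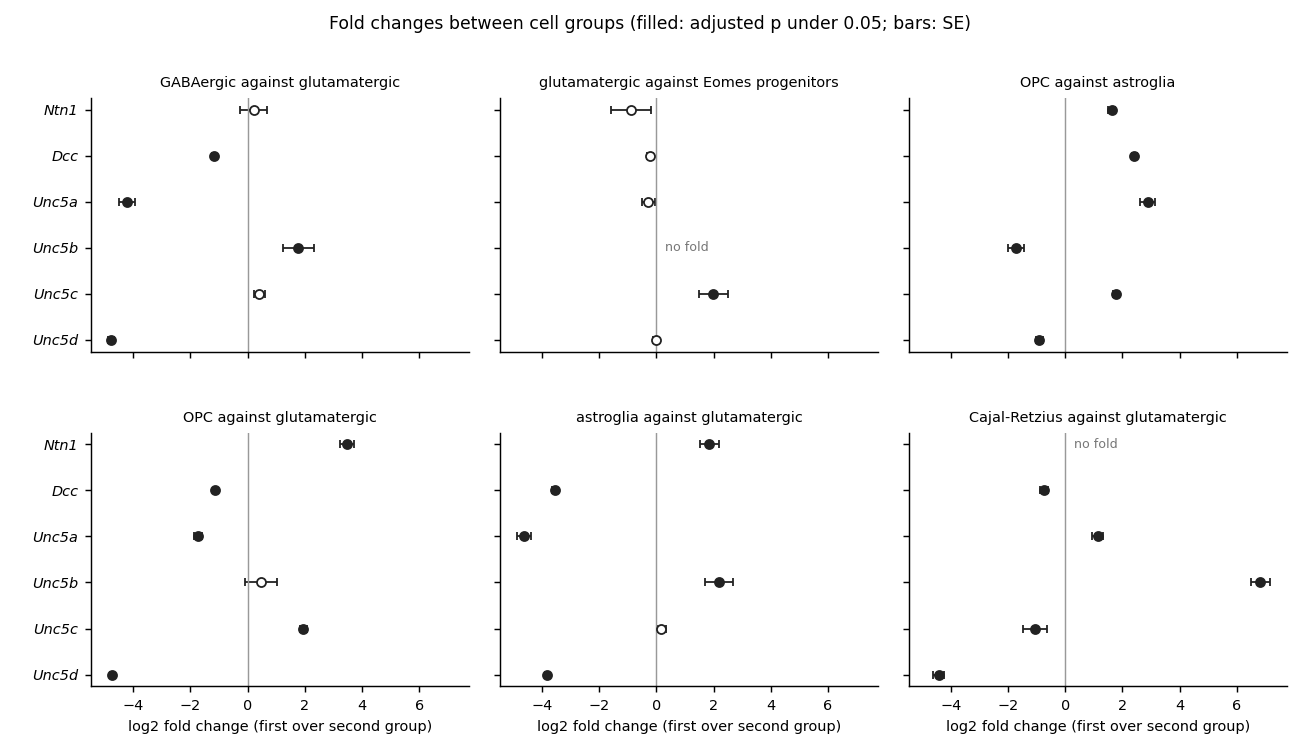
Log2 fold changes of the 6 genes in 6 comparisons of cell groups (x axis, first group over second). Points are estimates from edgeR's quasi-likelihood fit and bars their SE; filled points have an adjusted p under 0.05 (Unc5b in Cajal-Retzius cells is a description), and no fold is drawn where a group had 3 or fewer UMIs. Unc5d was lower than in glutamatergic neurons in all 4 comparisons that use these neurons as the second group, and Unc5b was higher in Cajal-Retzius cells by a log2 fold change of 6.82.

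Cajal-Retzius cells had more Unc5b and Unc5a and less Unc5d than glutamatergic neurons, in a comparison made because of their Unc5b counts, so the Unc5b difference is given without a test. Unc5b was 81.0 ± 17.8 CPM in Cajal-Retzius cells and 0.689 ± 0.0363 CPM in glutamatergic neurons, 113-fold higher (log2 6.82 ± 0.33). Unc5a was higher as well, at 48.9 and 37.1 CPM (1.13 ± 0.20, edgeR adjusted p = 6.82e-06). Unc5d was 10.8 and 12.4 CPM and lower than in glutamatergic neurons (-4.42 ± 0.19), and Dcc, at 69.4 and 86.7 CPM, was lower by a smaller amount (-0.74 ± 0.13). Unc5c was also lower (-1.04 ± 0.42, edgeR adjusted p = 0.0370), from 13 UMIs, and 5 of 9 alternative settings with a test lost that call (adjusted p of 0.0501 to 0.573). It was -0.60 without replicate 1 and -1.93 without replicate 2. Besides Unc5b, 4 members were past the threshold, 1 higher and 3 lower, against 46.5% of all 14838 genes tested (22% higher and 24.6% lower). Of all genes past the threshold, 47.2% were higher in Cajal-Retzius cells, or 57.0% with DESeq2 in place of edgeR. The median log2 fold change of all genes was -0.13. The Cajal-Retzius cells were deeper, with median UMIs of 18364.5 and 18858.5, against 6035 and 6879.5 in glutamatergic neurons. A UMI of Unc5b was found in 61.3% and 67.6% of Cajal-Retzius cells as sequenced. At equal depth, 17.7% (11 of 62) and 16.2% (11 of 68) of Cajal-Retzius cells had an Unc5b UMI, against 1 of 818 and 0 of 824 glutamatergic neurons. Scrublet, a doublet caller, marked 7 and 2 of the Cajal-Retzius cells.

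Glutamatergic neurons were described by upper-layer markers without a test. Neurons with at least 2 UMIs of Cux2 (119 and 164 cells) had Unc5c at 19.8 and 17.4 CPM, against 7.61 and 8.60 CPM in neurons with none, and Dcc at 78.2 and 114 CPM, against 127 and 150 CPM. Neurons with at least 2 UMIs of Rorb, a layer 4 marker, had Unc5c at 13.1 and 29.7 CPM, against 11.5 and 9.13 CPM in neurons without it. For Unc5d the Rorb neurons were the lower ones, at 120 and 152 CPM, against 241 and 263 CPM in neurons without it.

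GABAergic cells also differed among themselves, in a comparison chosen once the Lhx6 cells had proved too few with the gates as set. Cells with Sp8 and Meis2, markers of olfactory bulb neuroblasts (524 and 537 cells), had Unc5c at 6.82 and 10.4 CPM, against 24.0 and 46.5 CPM in Adarb2 cells, a class of interneurons from the caudal ganglionic eminence (90 and 102 cells). The log2 fold change was -1.92 ± 0.36 (edgeR adjusted p = 4.32e-05), where 16.0% of 13610 genes tested were past the threshold, 9.11% higher and 6.90% lower. Without replicate 2 it was -1.66. Dcc was 52.9 and 61.3 CPM in Sp8 Meis2 cells and 31.3 and 38.7 CPM in Adarb2 cells (0.84 ± 0.27, edgeR adjusted p = 0.0211), a call lost with a limit of 5% mitochondrial UMIs (0.120). Unc5d did not pass the test (-0.31, 95% interval -1.51 to 0.89). Of all genes past the threshold, 56.9% were higher in Sp8 Meis2 cells, or 44.4% with DESeq2 in place of edgeR. The few Lhx6 cells, a class of interneurons from the medial ganglionic eminence (19 and 30), had Unc5d at 99.1 and 50.6 CPM and Unc5c at 37.2 and 32.2 CPM, from 19 and 10 UMIs in all. They were under the minimum of 20 cells with the gates as set and could be tested in 2 alternative settings. Against Adarb2 cells, Unc5d was then higher in Lhx6 cells by log2 2.87 ± 0.63 at a gate minimum of 1 UMI (edgeR adjusted p = 0.00262) and gave 1.89 ± 0.59 with the highest gate sum, which did not pass (0.0701). Sp8 Meis2 cells against Lhx6 and Adarb2 cells gave -1.54 ± 0.47 and -1.73 ± 0.39 for Unc5d in these settings (edgeR adjusted p = 0.0115 and 0.000540), -1.44 and -1.68 for Unc5c and 1.59 and 1.82 for Dcc, all past the threshold.

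Unc5c and Unc5d were lower in dividing than in resting astroglia. Astroglia with at least 2 UMIs of Mki67 and Top2a (198 cells in each library) had Unc5c at 7.24 and 7.42 CPM, against 12.4 and 14.6 CPM in astroglia without them (1112 and 1077 cells). The log2 fold change was -0.99 ± 0.24 (edgeR adjusted p = 0.000899), and Unc5d gave -0.92 ± 0.23 (edgeR adjusted p = 0.00116), where 36.4% of all genes tested were past the threshold, 12.8% higher and 23.6% lower. Unc5d was 9.06 and 10.8 CPM in dividing astroglia and 13.2 and 21.5 CPM in resting astroglia. Dcc (-0.20, 95% interval -0.69 to 0.28), Unc5b (-0.44, -1.38 to 0.49) and Ntn1 (0.03, -0.61 to 0.67) did not pass the test. With a limit of 5% mitochondrial UMIs the Unc5c call was lost (edgeR adjusted p = 0.0511), and the balance over all genes turned to 2386 higher and 1805 lower, against 1736 and 3217 with the limit of 10%. The median log2 fold change of all genes was -0.16 in this comparison and -0.11 in the one that follows.

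In OPCs the receptor that was lower with division was Dcc. It was 49.1 and 55.5 CPM in dividing OPCs (671 and 770 cells) and 59.5 and 73.0 CPM in resting OPCs (2540 and 2454 cells), a log2 fold change of -0.40 ± 0.08 (edgeR adjusted p = 3.18e-05). Each library had less Dcc in dividing OPCs, and 39.8% of all genes tested were past the threshold, 13.9% higher and 25.9% lower. Unc5c, at 44.0 and 50.2 CPM in dividing OPCs and 40.9 and 48.2 CPM in resting OPCs, did not pass the test (0.02, 95% interval -0.13 to 0.18). Nor did Ntn1 (-0.24, -0.50 to 0.03), Unc5d (-0.13, -0.44 to 0.18), Unc5a or Unc5b. Of all genes past the threshold, 34.9% were higher in dividing OPCs, or 50.5% with DESeq2 in place of edgeR. With a limit of 5% mitochondrial UMIs, 2121 genes were higher and 2561 lower. Ntn1 passed the test at a gate minimum of 1 UMI (-0.40, edgeR adjusted p = 0.0460). Enpp6 cells, newly formed oligodendrocytes, could be set against resting OPCs at that minimum alone, where Unc5d (-2.74 ± 1.08, edgeR adjusted p = 0.0973), Unc5c (-0.39 ± 0.29) and Dcc (-0.33 ± 0.22) did not pass the test, nor did the other members.

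The difference between the changes with division, astroglia minus OPCs, was tested after both comparisons were known. For Unc5c it was -1.01 ± 0.26 on the log2 scale (edgeR adjusted p = 0.00510), a call lost without the library block (0.0814) and with a limit of 5% mitochondrial UMIs (0.0638). For Unc5d it was -0.79 ± 0.29 and did not pass the test (edgeR adjusted p = 0.0710), but passed in 5 alternative settings (0.0109 to 0.0343). In this test, 10.2% of all genes tested were past the threshold, 3.28% higher and 6.92% lower, which was 446 genes higher and 942 lower, against 850 and 599 with the limit of 5%.

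**Figure D4:**
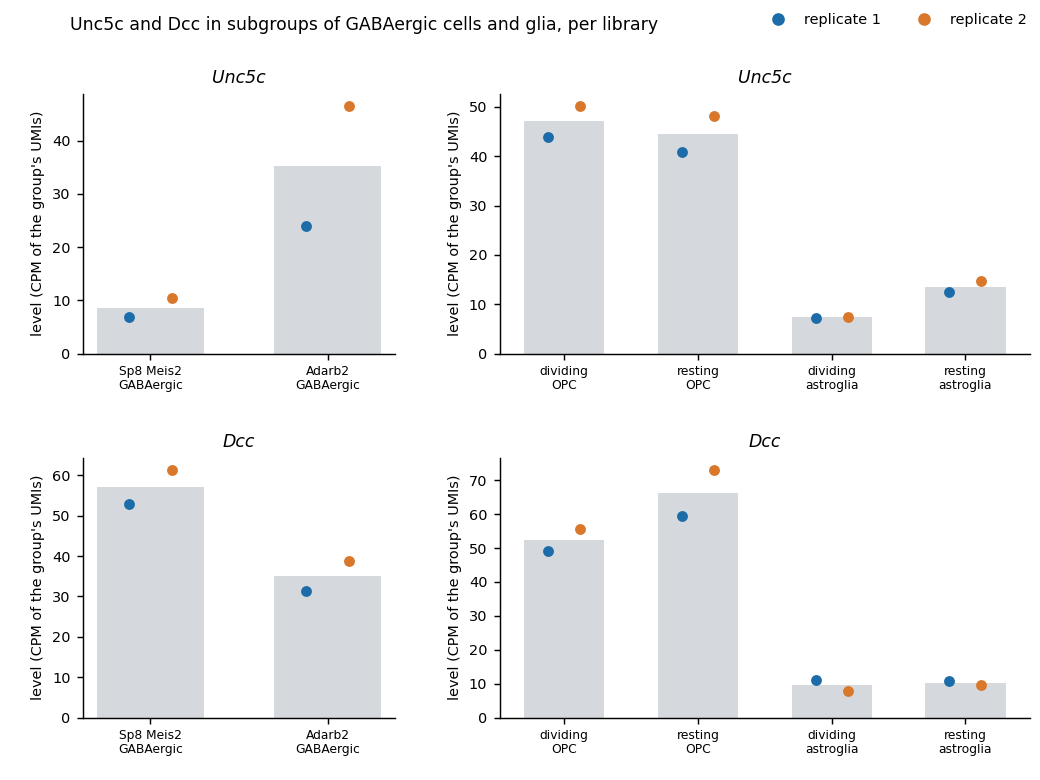
Unc5c (top) and Dcc (bottom) in subgroups of GABAergic cells, OPCs and astroglia (y axis, CPM). Points are the 2 libraries and bars their mean. Unc5c was 6.82 and 10.4 CPM in Sp8 Meis2 cells, against 24.0 and 46.5 CPM in Adarb2 cells.

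Because Dcc and Unc5 proteins are known to act together, their detection in single OPCs was compared after thinning to 2000 UMIs. Unc5c was found in 40 of 386 Dcc-positive OPCs of replicate 1 (10.4%, 95% interval 7.51% to 13.8%) and 58 of 450 of replicate 2 (12.9%, 9.93% to 16.3%), against 7.78% (6.85% to 8.79%) and 9.04% (8.05% to 10.1%) of Dcc-negative OPCs. The intervals of Dcc-positive and Dcc-negative OPCs overlapped in both libraries. The difference averaged 3.22 ± 0.892 percentage points (SD, n = 2) and was 1.77 ± 0.713 at 4000 UMIs. In glutamatergic neurons, Unc5d was found in 52 of 161 (32.3%) and 73 of 195 (37.4%) Dcc-positive cells, against 33.2% and 32.4% of Dcc-negative cells, with overlapping intervals in both libraries. These shares were not tested, since cells of 1 library are not replicates.

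The wider netrin pathway was followed in 44 further genes (other netrins and netrin-Gs, Neo1, Dscam, Flrt and repulsive guidance genes, and signalling partners inside the cell). Dscam, Trim9, Rgma and Ntn5 overlap genes on the other strand, so their counts are uncertain. In OPCs against astroglia, 19 of 43 tested were higher and 18 lower, where 36.6% and 35.4% of all genes were (median log2 -0.03, against 0.01 for all genes). Dscam, a further netrin receptor, was 121 ± 8.44 CPM in OPCs and 3.55 ± 0.106 CPM in astroglia, and Flrt1 28.0 ± 1.72 CPM and 1.97 ± 0.111 CPM. Trim9, a ubiquitin ligase that binds Dcc, was lower, at 54.9 ± 3.67 CPM in OPCs and 470 ± 62.4 CPM in astroglia, as was Rgma, a ligand of neogenin, at 25.3 ± 0.559 and 166 ± 0.0267 CPM. In OPCs against glutamatergic neurons 20 of 43 were higher and 18 lower, where 34.4% and 34.6% of all genes were (median log2 0.13). Lrrc4c, the receptor of netrin-G1, was 64.3 ± 0.544 CPM in OPCs and 12.6 ± 1.64 CPM in glutamatergic neurons, and the actin-binding gene Ablim1 1.76 ± 0.186 CPM and 17.6 ± 2.14 CPM. In astroglia against glutamatergic neurons 16 were higher and 22 lower, where 37.8% and 36.8% of all genes were, with Myo10, a myosin that carries Dcc, at 205 ± 3.43 CPM in astroglia and 20 ± 6.29 CPM in glutamatergic neurons.

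Among neurons, GABAergic cells had 14 of 43 pathway genes above and 21 below the level of glutamatergic neurons, where 23.7% and 27.8% of all genes were (median log2 -0.13, against -0.05 for all genes). Ntng1, which encodes netrin-G1, was 33.8 ± 0.686 CPM in GABAergic cells and 8.52 ± 0.327 CPM in glutamatergic neurons. Neo1, the neogenin receptor and closest relative of Dcc, was lower, at 23.0 ± 0.707 CPM in GABAergic cells and 81.3 ± 1.80 CPM in glutamatergic neurons. In glutamatergic neurons against Eomes progenitors 16 of 43 were higher and 4 lower, where 12% and 7.21% of all genes were (median log2 0.28, against 0.10 for all genes), with Dscam at 38.8 ± 4.04 CPM in glutamatergic neurons and 11.7 ± 5.89 CPM in Eomes progenitors. With division, 3 of 43 were higher and 17 lower in OPCs, where 13.9% and 25.9% of all genes were, and 1 higher and 21 lower in astroglia, where 12.8% and 23.6% were. Siah1b, a ubiquitin ligase of a family that degrades Dcc, had the largest rise of the list in both, at 28.3 ± 2.43 CPM in dividing and 13.9 ± 0.0135 CPM in resting OPCs. In Sp8 Meis2 against Adarb2 cells 2 of 43 were higher and 7 lower, where 9.11% and 6.90% of all genes were, including Flrt1, at 4.75 ± 0.593 CPM in Sp8 Meis2 cells and 36.2 ± 17.2 CPM in Adarb2 cells.

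Cajal-Retzius cells had 17 of 44 pathway genes higher and 14 lower than glutamatergic neurons, where 22% and 24.6% of all genes were. Flrt3, a known ligand of Unc5b, was 165 ± 21.0 CPM in Cajal-Retzius cells and 24.0 ± 0.657 CPM in glutamatergic neurons. Ntn5, a further netrin, was 15.6 and 14.7 CPM in Cajal-Retzius cells and had 0 UMIs in glutamatergic neurons. Flrt2 was lower, at 2.04 ± 1.5 CPM in Cajal-Retzius cells and 15.2 ± 0.0497 CPM in glutamatergic neurons.

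Genes with the most similar pattern were sought among 9759 genes over 44 points (22 groups and subgroups, which share cells, in both libraries), by Pearson's r of log2(CPM + 1), as a description. For Ntn1 they were Carnmt1, Olig2 and Olig1 (r = 0.92 each), the last pair being transcription factors of the oligodendrocyte lineage. For Dcc they were Sorbs2, Podxl2 and Eml5 (0.95 each), and for Unc5a Lingo1 (0.94), Pcp4 and Fbxo9 (0.92 each). Unc5b was most like Pthlh (0.89), Gm27199 (0.88) and Ndnf (0.88), and Unc5c like Farp1, Prkca (0.86 each) and Cadm2 (0.84). Unc5d gave the closest matches, Ttc28 and Zbtb18 (0.98 each) and Neurod1 (0.97), the last a factor of the excitatory lineage that also served as a check marker.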

How the data were processed

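Per the labels, both libraries hold single-cell RNA of sorted P3 pallial cells. The authors deposited a filtered matrix of whole-number UMI counts for each library, written by Cell Ranger 6.0.2 per the file headers. Seurat 4.1.0, R 4.1.0 and the mm10 build are listed in the submitters' processing notes; the sources used here give no annotation release.

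Members, gene lists, gates and comparisons were chosen with earlier results of these data known. Barcodes under 500 genes (441 and 657) and then over 10% mitochondrial UMIs (2189 and 2891) were removed. A barcode past several gates was left out, except that Eomes outranked Neurod2 and Neurod6, Trp73 outranked these and Eomes, and Enpp6 outranked Pdgfra. Doublets were not removed otherwise. Scrublet in scanpy 1.11.5 marked 862 (7.68%) and 778 (7.10%) cells, and their removal was an alternative. Cells past no gate (27.1% and 22.6%) were not used.

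Counts were summed per library and group (at least 20 cells in each library) and tested by quasi-likelihood in edgeR 4.0.16 (R 4.3.3), using TMM, filterByExpr, the library as a block and Benjamini-Hochberg adjustment over all genes at 0.05. The model of 5 groups had 10 sums and 4 residual degrees of freedom, that of subgroups 28 sums and 13, and that with Cajal-Retzius cells and microglia 14 sums and 6. The replicate number pairs the sums because it names their library. The SE is the log2 fold change over the root of F, and 95% intervals use 1.96 SE. No fold was given with under 20 UMIs over both groups or with 3 or fewer in either. In simulated counts, 72.7% of 2-fold and 96.0% of 4-fold changes were recovered for GABAergic against glutamatergic cells. There, all groups shared a profile, the dispersion was fixed and 200 genes were changed, with 9 false calls among 13735 genes tested. The simulation was simpler than the data, so these rates need not hold for low-count members or for subgroups.

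Named pathway genes were at most the 3 called higher and the 3 called lower with the largest log2 fold change in each comparison, and some of these are given. Shares of single libraries carry Clopper-Pearson 95% intervals, limits for 0 use 3 counts, and both cover counting error only. Gene positions are from GENCODE vM21 (mm10). Promoter windows are from RefSeq. DESeq2 1.42.0, no filter on low counts, no library block, other gate minimums and filters, Scrublet, 4000 UMIs and single libraries were alternatives. Comparisons of Lhx6 or Enpp6 cells could be run only in alternative settings, as replicate 1 had 19 and 16 of them with the gates as set. A planned split of glutamatergic neurons is not reported here.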

Additional observations from a re-analysis of the deposited data

Results flagged for a closer look

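The fold change of Unc5c with division differed between astroglia and OPCs by a test of the difference itself, chosen after both comparisons of dividing cells were known. The log2 difference, astroglia minus OPCs, was -1.01 ± 0.26 (SE, edgeR adjusted p = 0.00510), where 10.2% of all genes tested were past the threshold. Unc5c gave -0.99 with division in astroglia and 0.02 in OPCs. The call was lost without the library block (edgeR adjusted p = 0.0814) and with a limit of 5% mitochondrial UMIs (0.0638), with log2 differences of -1.01 and -0.78. The same difference for Unc5d was -0.79 ± 0.29 and did not pass the test (edgeR adjusted p = 0.0710), but passed in 5 alternative settings with log2 differences of -0.81 to -1.09 (edgeR adjusted p of 0.0109 to 0.0343). No test set Unc5c against Unc5d.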

How the results depend on the processing

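For the 32 member fold changes past the threshold, 294 alternative fits with a test kept direction and call, 15 lost the call and 0 changed direction. The 32 include Unc5b in Cajal-Retzius cells, a comparison made because of these counts, so its fits are no support for a call. With a single library, which gives values and no test, 61 values moved by less than the spread between libraries and 3 by more. That spread was taken from the same single-library values, and the fit to both libraries lies between them. A move within the spread is thus nearly built in, and this count cannot tell how firm the fold changes are. For member fold changes not past the threshold, 42 single-library values stayed within it as well. Among the 21 member fold changes not past the threshold, 16 alternative fits changed sign and 19 gained a call in the same direction. With assignment by the highest gate sum the log2 fold changes were -0.44 for Ntn1 in GABAergic against glutamatergic cells, 0.85 for Unc5a and 0.76 for Unc5d (edgeR adjusted p = 2.60e-06) in glutamatergic neurons against Eomes progenitors, -0.65 for Unc5b in OPCs against glutamatergic neurons, -0.012 for Unc5c in dividing against resting OPCs and 0.30 for Dcc in dividing against resting astroglia. A gate minimum of 3 UMIs gave -0.32, 0.16 (Unc5d) and -0.41 for the first, the third and the fourth of these, and -0.038 for Ntn1 in dividing against resting astroglia. A minimum of 1 UMI gave 0.16 for Ntn1 in glutamatergic neurons against Eomes progenitors, -0.23 for Unc5b in OPCs against glutamatergic neurons and -0.068 for Unc5c in astroglia against glutamatergic neurons. Scrublet removal gave 0.027 for Unc5d in dividing OPCs, and a limit of 5% mitochondrial UMIs gave 0.080 for Dcc in dividing astroglia and 0.24 for Unc5d in Sp8 Meis2 cells. The causes were not tested.

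Counts of called genes moved by over 1.5 times in 2 comparisons. Without the replicate block, dividing against resting OPCs had 3125 (5415 with it) and the difference of astroglia and OPCs 392 (1388). DESeq2 gave 3276 and 830 for the same pair. The mean difference in Unc5c detection by Dcc was 1.77 percentage points at 4000 UMIs. The group with the highest level stayed the same for 4 to 6 of the 6 genes in each of 6 settings. In these settings, 53 mean CPM levels of the genes in the 5 groups moved by more than the SD of the 2 libraries, and 127 did not. Low counts limit Unc5b and Ntn1 in neurons, as well as Unc5a in GABAergic cells and Unc5c in Eomes progenitors and Cajal-Retzius cells. With 1 library alone, no residual degrees of freedom are left for counts of called genes.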
